A study of Mus musculus with 2 samples.

Results

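Short isolated peaks are the places where HA-Dido3 chromatin immunoprecipitation (ChIP) gave a brief, solitary rise in sequenced tags. They were chosen by 2 limits on the deposited peak list: a length of 500 bp or less, and no other listed peak within 10 kb on either side. Of the 2888 peaks on the 20 chromosomes of the list, 898 met both limits (31.1%, 95% exact Clopper-Pearson interval 29.4% to 32.8%). Tags, score, fold and false discovery rate come from the same peak call as the length and the position, so they are given as a description and nothing is tested with them. Short peaks with a neighbour within 10 kb (1020), longer isolated peaks (315) and longer peaks with a neighbour (655) stand beside them for comparison.

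The study placed HA-tagged Dido3 on the genome of C57BL/6 mouse embryonic stem cells. From them, 1 anti-HA ChIP library was sequenced with 1 library labelled input, made without antibody. Both libraries came from cells of the genotype Dido3deltaCT+HADido3, grown with leukemia inhibitory factor, so the Dido3deltaCT allele and the added HA-Dido3 were shared by ChIP and input. Neither replicate libraries nor an anti-HA ChIP of cells lacking the tag were analysed here, and a tag-dependent peak cannot be told apart from a peak of the antibody or of the chromatin. The labels do not say whether the cells were 1 clone or how HA-Dido3 was expressed.

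Dido3 is the largest protein made from the Dido1 gene. It carries a PHD finger, a fold that reads the methylation of histone H3 tails, and is found with transcribed chromatin. In ChIP, a protein that sits at 1 point leaves a peak about as wide as the sheared fragments, whereas a protein spread along a gene or a domain leaves a broad peak or a row of peaks. A peak caller of the MACS family slides along the genome, compares the tags at each place with a background, and lists the places where the count is improbable under that background. Where the count is low, the same limit also lists places by sampling alone, which exchanging ChIP and input is meant to measure.

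The short isolated peaks were many and held little of the signal. They made up 46.8% of the 1918 short peaks and 74.0% of the 1213 isolated peaks. When listed peaks within 10 kb of each other were joined, 1839 regions remained, and 48.8% of them were a short isolated peak. Their 11086 ChIP tags were 13.2% of the 84288 tags in all listed peaks, and their 294 kb were 17.7% of the covered length. The number of sequenced reads is unknown, and the precision of every value is set by the tag counts and peak numbers given beside it.

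Peak lengths ran from 129 to 499 bp, with a median of 314 bp (95% interval 310 to 319, n = 898) and quartiles of 281 and 374.5 bp. Lengths from 250 to 350 bp took in 508 peaks (56.6%). The sheared fragments are described as about 200 to 500 bp, and 14 peaks were shorter than 200 bp. The longest members lay on chromosome 1 (174068684 to 174069182, 499 bp, 20 tags) and chromosome 11 (120240385 to 120240882, 498 bp, 18 tags). The isolated peaks next above the length limit lay on chromosome 15 (76545609 to 76546111, 503 bp, 35 tags) and chromosome 17 (29107063 to 29107569, 507 bp, 22 tags). At the distance limit, the members with the nearest neighbours stood 10091 bp from another peak on chromosome 12 (20820007 to 20820352) and 10241 bp on chromosome 4 (83102467 to 83102720). The short peaks just left out were 9857 bp from a neighbour on chromosome 19 (8950937 to 8951225) and 9804 bp on chromosome 16 (38512652 to 38512946).

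Tag counts were close to the lowest count in the list. The median member had 11 tags (interval 11 to 11), its quartiles were 10 and 14, and the counts ran from 9 to 38. Exactly 9 tags were listed for 102 members, 10 tags for 222, 11 tags for 168 and 12 tags for 100, so 592 members (65.9%) held 12 tags or fewer. Only 33 members held 20 tags or more. The median was 12 tags in short peaks with a neighbour, 40 in longer isolated peaks and 36 in longer peaks with a neighbour. Per 100 bp, the medians were 3.64 in the members and 3.69, 4.97 and 4.71 tags in the other classes, in the same order. Dividing by length does not take the length out, since a longer peak needs fewer tags per 100 bp to be listed. Short peaks with and without a neighbour thus had nearly the same density of tags, and the longer peaks were denser as well as longer.

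**Figure D1:**
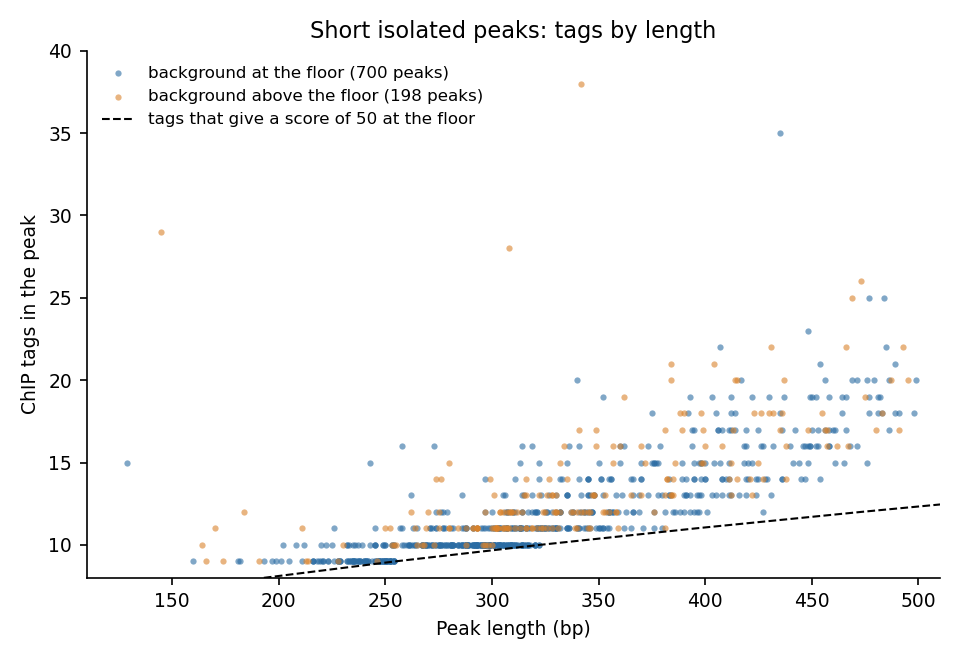
ChIP tags (vertical axis) against peak length in bp (horizontal axis) for the 898 short isolated peaks. Blue marks peaks whose fold placed the background at its genome-wide floor (700 peaks), and orange those whose fold placed it higher (198 peaks). The dashed line marks the tags that give a score of 50 at the floor, and most peaks lie in a narrow band just above it, with a few of 28 or more tags far from the band.

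The authors' score is minus 10 times the log10 of p as the caller gave it, and the list begins just above a score of 50, the score of a p of 1e-05. The median score of the short isolated peaks was 59.2 (interval 58.6 to 60.3), with quartiles of 53.5 and 71.4. Their scores ran from 50.05 to 274.72. Short peaks with a neighbour had a median score of 65.1 (interval 63.6 to 66.4), longer isolated peaks 204.7 and longer peaks with a neighbour 177. A score of at least 100 was reached by 57 members (6.35%), against 11.4% of the short peaks with a neighbour and 89.2% of the longer isolated peaks. The best member ranked 335 by score in the whole list, and the second, a peak of 129 bp described separately, ranked 403.

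**Figure D2:**
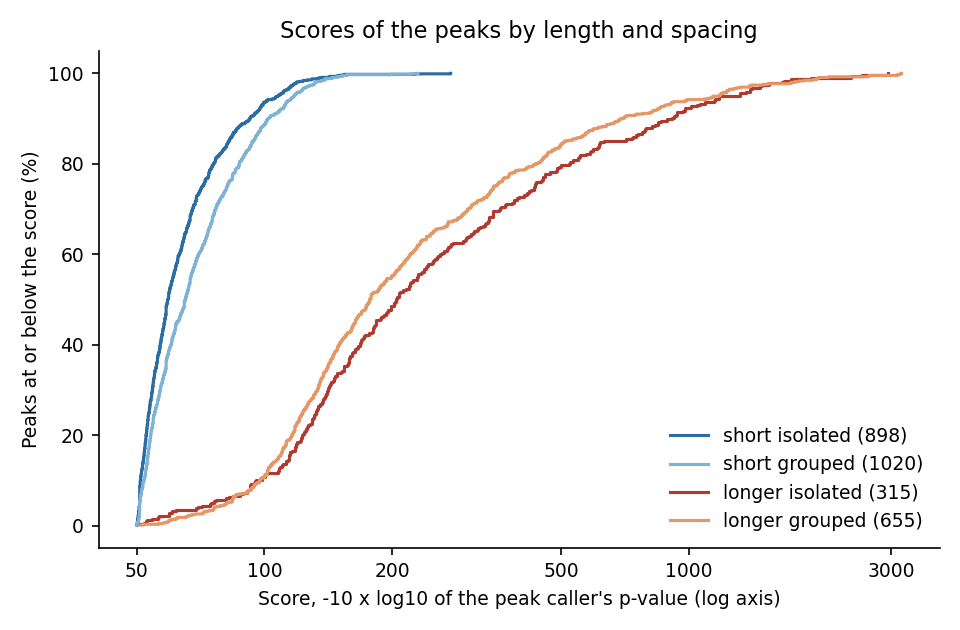
Percent of peaks (vertical axis) at or below each score (horizontal log axis) for the 4 classes of peaks by length and spacing. The curve of the 898 short isolated peaks rises first, with a median of 59.2, and ends at 274.72, while the 315 longer isolated peaks reach 2945 and the 655 longer peaks with a neighbour reach 3172.

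Most short isolated peaks lay where the list's own background was densest. Peaks called after exchange of ChIP and input, here named swapped peaks, were recovered from the listed false discovery rate and the rank. Scores of 50 to 60 held 473 of the 898 members (52.7%), and in that range the whole list had 22.4 swapped peaks per 100 listed. Scores of 60 to 75 held 237 members (26.4%), at 20 swapped per 100 listed. Scores of 75 to 100 held 131 members (14.6%), where the ratio was 2.38 per 100. Above these, 55 members scored 100 to 200, at 0.518 per 100, and 2 scored higher, where the ratio was 1.31 per 100. How many swapped peaks were themselves short and isolated is unknown, so these ratios belong to the score ranges and not to the members alone. For 525 members the listed false discovery rate exceeded 5% (58.5%, interval 55.2% to 61.7%). The share was 45% of the short peaks with a neighbour (41.9% to 48.1%), 5.08% of the longer isolated peaks and 3.51% of the longer peaks with a neighbour. The listed rate did not fall steadily with score. At the lowest score of the list, 50.05, it was 11.29%, yet it reached 25% in longer isolated peaks and 33.3% in longer peaks with a neighbour. In the longer classes a rate above 5% thus did not always go with a low score.

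The background behind nearly every member could be recovered from its score, tags, length and fold. The authors' fold enrichment is the tag height at the summit over the expected background, and 700 members (78.0%) had folds that were whole multiples of 1.96 within 0.01. These are peaks whose background stood at the genome-wide floor of the peak caller. Taking the score as a Poisson probability of at least the listed tags, the floor came to 0.516 expected tags per 100 bp, within 0.5% for 689 of the 700. The step of 1.96 then stood for 1 tag over a window of 99.0 bp, and no peak of the list at the floor had more steps than tags. Of the 22 members for which this failed, 13 were shorter than 200 bp and 7 others held 20 tags or more. The remaining 876 members had a median of 1.68 expected tags (interval 1.65 to 1.73) and a median of 6.82 observed tags for each expected tag. In short peaks with a neighbour this ratio was 6.92 (1008 peaks).

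Summits of the short isolated peaks were a stack of a few tags. The recovered height at the summit was a median of 7 tags, 6 tags in 236 members, 7 in 283 and 8 in 169. Of the 876 members, 63 (7.19%) reached 10 tags, and the highest 2 reached 15. The upper end is cut short here, because 8 of the 9 members with 23 or more tags are among the 22 with no recovered height. A median of 60% of a member's tags overlapped at its summit, against 57.1% in short peaks with a neighbour. The summit lay between 25% and 75% of the peak's length in 880 members (98%), but between 40% and 60% in only 416 (46.3%). It was never closer than 64 bp to an edge. The distance from the summit to the nearer edge was 90 to 97 bp in 236 members and 98 to 105 bp in 30, an abrupt fall close to the window of 99.0 bp.

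**Figure D3:**
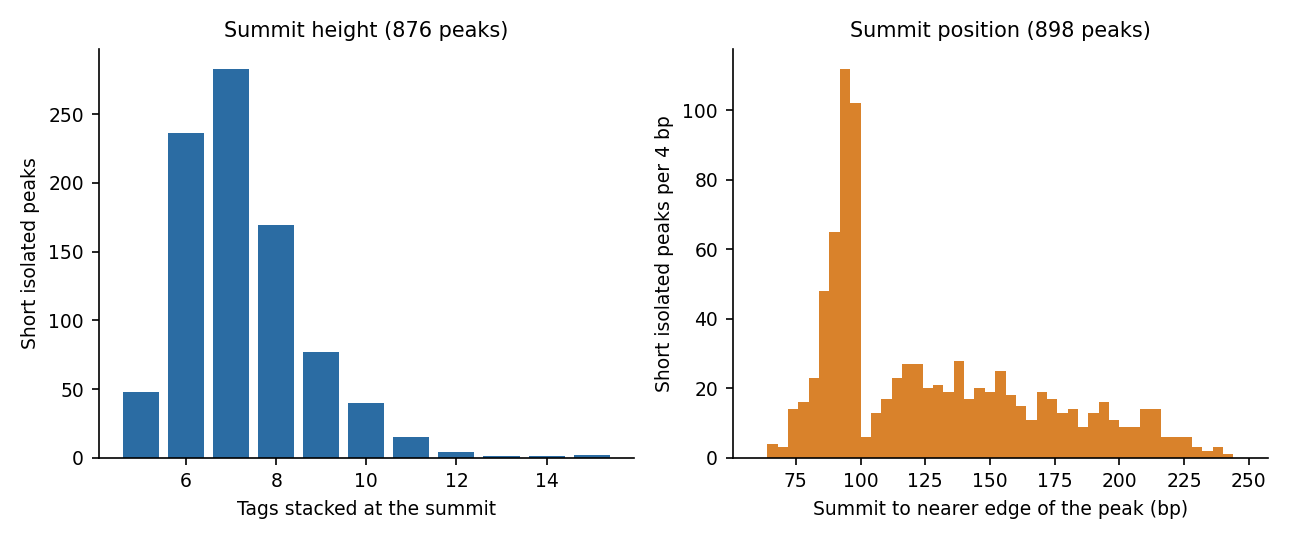
Left, the number of short isolated peaks (vertical axis) by the tags stacked at the summit (horizontal axis) for the 876 peaks with a recovered height, most of them at 6 to 8 tags. Right, the number of peaks per 4 bp by the distance in bp from the summit to the nearer edge, for all 898 peaks, which falls abruptly after 97 bp.

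At so few tags the length of a peak and its score were tied. At the floor a peak of 9 tags reaches a score of 50 only up to 254 bp, and the longest member with 9 tags and background at the floor was 254 bp. With 10 tags the limit is 322 bp, and the longest such member was also 322 bp. The limit is 395 bp with 11 tags, where the longest was 380 bp. With 1 tag fewer at the same background, 408 of the 876 members (46.6%, interval 43.2% to 49.9%) would score under 50, compared with 34.0% (31.1% to 37.0%) of the short peaks with a neighbour. This calculation was added after the values were seen.

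Above 200 bp, longer members had more tags and higher scores. The 14 members up to 200 bp went against this order, with a median of 9 tags, a score of 65.2 (interval 58.5 to 94.0) and 5 peaks (35.7%) with a false discovery rate above 5%. Those over 200 and up to 250 bp (103) had a median of 9 tags and a score of 52.9, and 88.3% had a listed false discovery rate above 5%. Over 300 and up to 350 bp (288) the medians were 11 tags and 58.4, and the share was 69.8%. At 400 to 450 bp (95) they were 16 tags and 76.8, and the share was 11.6%. At 450 to 500 bp (59) they were 18 tags and 94.8, and 2 peaks (3.39%) exceeded 5%. Short peaks with a neighbour followed the same course, with median scores of 53.4, 60.04, 85.2 and 97.7 in these ranges. At 300 to 350 bp the share above 5% was 58.2% for them (interval 52.3% to 63.9%) and 69.8% for the isolated peaks (64.1% to 75.04%), so the intervals did not overlap there. In every other range of length the intervals of the 2 classes overlapped, and at 350 to 400 bp both shares were 29.9%.

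The farther a short peak stood from any other, the lower was its median score. Distance to the nearest peak had a median of 192 kb over the members, with quartiles of 52.8 and 777 kb. Among all short peaks the median score was 66.1 (interval 64.8 to 67.4, n = 787) within 1 kb of another peak and 61.7 (59.4 to 64.8, n = 233) at 1 to 10 kb. Among the isolated ones it was 60.3 (58.7 to 62.6, n = 214) at 10 to 50 kb, 59.8 (58.3 to 62.0, n = 249) at 50 to 200 kb and 59.1 (57.9 to 61.2, n = 252) up to 1 Mb. Beyond 1 Mb it was 56.8 (55.0 to 59.9, n = 183). Neighbouring intervals overlapped at every step beyond 1 kb, and the interval beyond 1 Mb reached into the one at 10 to 50 kb. Median length fell alongside, from 346 bp within 1 kb to 304 bp beyond 1 Mb, and the part of length in the score was not separated from that of distance. The share above a false discovery rate of 5% was 43.2% within 1 kb, 55.6% at 10 to 50 kb and 61.7% beyond 1 Mb.

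**Figure D4:**
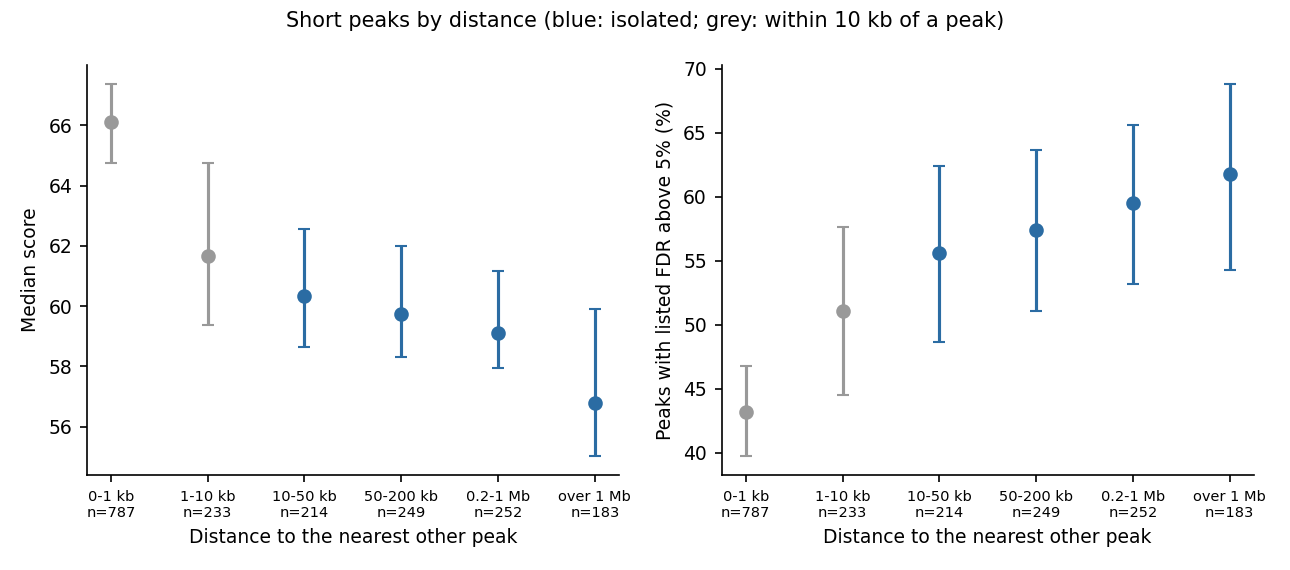
Median score (left) and percent of peaks with a listed false discovery rate above 5% (right) for all 1918 short peaks by distance to the nearest other peak, with isolated peaks in blue and short peaks within 10 kb of another in grey. Bars are 95% exact intervals that cover counting error only, and the vertical axes do not start at 0. The score moves from 66.1 within 1 kb to 56.8 beyond 1 Mb.

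Judged by the fold, a background above the floor was seen at 198 members (22.0%, interval 19.4% to 24.9%). It was seen at 24.8% of the short peaks with a neighbour (22.2% to 27.6%). The shares were 26.0% of longer isolated peaks and 39.1% of longer peaks with a neighbour. For 187 of the 198 the expected tags could be recovered. Each matched a whole number of background tags in at least 1 of 4 windows tried here: the peak, 1 kb, 5 kb and 10 kb. No source used here says which windows the peak call examined. In 85 the peak itself gave a whole number, of 2 background tags in 60 peaks, 3 in 18, 4 in 3 and 5 in 4, and 7 of these 85 also matched another window. The other matches do not name 1 window, since a whole number of tags per 1 kb is also one per 5 kb and per 10 kb, and 89 of the 187 matched more than 1. Of those not matched by the peak, 63 had a whole number per 1 kb, at a rate of 6 tags per kb in 36 peaks and 7 in 17. Another 19 first matched at 5 kb and 20 at 10 kb. A whole number per 5 kb is also one per 10 kb, so the 19 do not show that a window of 5 kb was in use. Values were matched within 0.003 tags for the peak and for 1 kb, within 0.015 for 5 kb and within 0.03 for 10 kb. The background of these peaks was a median of 1.21 times the floor, and 8 of the 187 had at least 2 times the floor.

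A few short isolated peaks stood far above the others. The highest score, 274.72, belonged to the first listed peak of chromosome 17 (4626156 to 4626590), with 35 tags in 435 bp, a 31.3-fold enrichment and no other peak within 1.63 Mb. Its false discovery rate was listed as 1.19%. The next 8 by score, leaving aside a peak of 129 bp described separately, were on chromosome 8 (74269114 to 74269590, 25 tags, score 154.25), chromosome 11 (97699757 to 97700240, 25 tags, 152.89) and chromosome 17 (56408517 to 56408964, 23 tags, 149.99). They continued on chromosome 2 (181026659 to 181027065, 22 tags, 148.29), chromosome 3 (12858027 to 12858457, 22 tags, 142.69) and chromosome 7 (133647190 to 133647529, 20 tags, 142.25). The last were on chromosome 12 (52081056 to 52081524, 25 tags, 135.89) and chromosome 17 (56339275 to 56339582, 28 tags, 134.52). The 2 peaks of chromosome 17 near 56 Mb were neighbours, 68.9 kb apart. Folds of these 8 peaks lay between 19.6 and 27.4, above the upper quartile of the members, 15.65.

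The shortest member was also the second by score. It covered 129 bp of chromosome 2 (60240791 to 60240919) with 15 tags, and its score of 226.20 came with a fold of 29.4. That score is higher than 15 tags in 129 bp give with the background at the floor. The peak's rank thus rests on a score that its listed tags do not account for. Its fold was 15 steps of 1.96, as many steps as tags. Among members whose fold was a whole number of steps, 5 of 700 had as many steps as tags, the other 4 with 9 tags each. For none of these 5, all shorter than 200 bp, could the background be recovered, so the steps cannot be read as tags at their summits. A peak of 258 bp on chromosome 6 (132413701 to 132413958), the highest of its chromosome at a score of 118.73, had a recovered height of 15 for its 16 tags, against a median of 60% of the tags over the recovered members. Whether its tags shared a start position was not tested.

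Folds under 7 were listed for 3 members, 2 of them with many tags. A peak of 145 bp on the X chromosome (108807465 to 108807609) held 29 tags, the highest density of the members at 20 per 100 bp, but its fold was 3.54 and its score 54.53. A peak of 342 bp on chromosome 13 (65732767 to 65733108) had 38 tags, the most of any member, yet its fold was 5.18 and its score 66.16. The third, on chromosome 17 (6254833 to 6255147), had 13 tags and a 6.73-fold enrichment with a background 1.74 times the floor. For the first 2 neither fold was a whole number of steps, and the size of the background was not recovered.

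Each chromosome carried short isolated peaks, from 15 on the X to 80 on chromosome 7. Per Mb between the outermost listed peaks of each chromosome there were 0.359 over the genome. Chromosome 19 had the most, at 0.662 (38 peaks), followed by chromosome 17 at 0.574 (52 peaks). The X had the fewest, at 0.0990, and chromosome 3 was lowest among the autosomes, at 0.233 (36 peaks). As a share of each chromosome's own peaks the spread was smaller. The interval of the share included the genome-wide 31.1% for 17 of the 20 chromosomes. Chromosome 5 lay above it, where 71 of 152 peaks (46.7%, 38.6% to 55.0%) were short and isolated. Chromosome 4 (54 of 233, 23.2%, 17.9% to 29.1%) and chromosome 11 (64 of 273, 23.4%, 18.5% to 28.9%) lay below it. The X had 15 of 39 (38.5%, 23.4% to 55.4%), so the few short isolated peaks there went with few peaks of all kinds. As a share of regions, chromosomes 5 (61.7%) and 1 (60.4%) lay above the genome-wide 48.8% and chromosome 11 (37.9%) below it. These intervals treat peaks as independent, and 20 chromosomes were looked at.

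**Figure D5:**
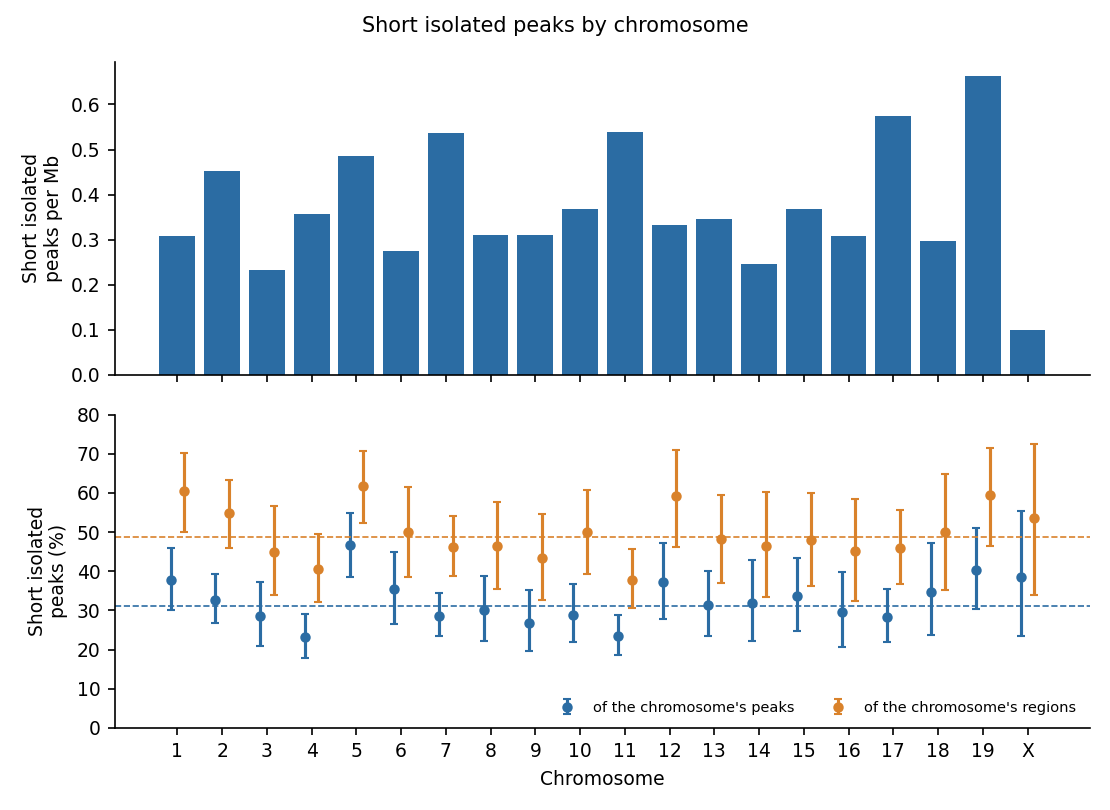
Top, short isolated peaks per Mb between the outermost listed peaks of each chromosome, from 0.0990 on the X to 0.662 on chromosome 19. Bottom, short isolated peaks as a percent of the chromosome's peaks (blue) and of its regions (orange), with 95% exact intervals; dashed lines mark the genome-wide 31.1% and 48.8%.

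The typical member had a low score on every chromosome. The median score of the members ranged from 56.8 on chromosome 1 (interval 55.1 to 60.3, n = 58) to 63.0 on chromosome 18 (57.5 to 75.2, n = 24), and these intervals overlapped. Median tags were between 11 and 13. The best member of chromosomes 19, X, 16, 13 and 18 scored 97.7, 101.25, 100.8, 109.58 and 110.54. On chromosomes 1, 14, 5, 4, 10, 9 and 15 the best member scored 114.19, 114.38, 117.05, 117.34, 120.83, 123.85 and 129.1. A background above the floor was seen for 12.7% of the members on chromosome 5 (9 of 71) and for 35% on chromosome 13 (14 of 40), the lowest and highest shares.

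Members were next to other members about as often as their number gives. The nearest peak to a member was another member in 438 of 898 cases (48.8%, 45.5% to 52.1%), and members were 48.8% of all regions. It was a short peak of a group in 193 cases, a longer isolated peak in 155 and a longer peak of a group in 112. The longest rows of members with no other peak between them held 11 peaks each. On chromosome 5 such a row spanned 2.80 Mb (135418041 to 138221604), all 11 at the floor, with 9 to 17 tags and scores of 52.8 to 91.4. On chromosome 2 the row spanned 10.1 Mb (144106802 to 154243523), with 9 to 16 tags, and 9 of the 11 had a false discovery rate above 5%. Single members with no other member next to them were 231, counting any at the end of a chromosome's list, which have a peak on 1 side only.

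The densest window of 1 Mb held 8 short isolated peaks among 19 peaks, on chromosome 7 from 52 to 53 Mb. They carried 10 to 18 tags, 7 of them were at the floor, and 3 exceeded a false discovery rate of 5%. Another 8 windows held 5 members, and 459 windows held a single one. On chromosome 11, from 97 to 98 Mb, the 5 members had a median score of 97.4 and all were at the floor. On chromosome 13, the adjoining windows from 65 to 66 Mb and 66 to 67 Mb held 5 members each, and in both of them 4 of the 5 exceeded the floor. The peak of 38 tags lay in the first. There, peaks of 18 and 20 tags (65433564 to 65433993 and 65664739 to 65665175) had backgrounds of 2.23 and 2.22 times the floor and scores of 53.3 and 64.6.

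At the other end, 183 members (20.4%) had no listed peak within 1 Mb and 16 had none within 5 Mb. The most remote lay on the X chromosome (83442303 to 83442616), 11.1 Mb from the nearest peak, with 11 tags, an 11.7-fold enrichment and a score of 59.36. On chromosome 4 (74733997 to 74734312) a peak of 10 tags stood 8.37 Mb from any other, at a score of 50.75. The X peak of 145 bp and 29 tags was 7.66 Mb from any other. A further X peak (148712700 to 148713005) stood alone by 7.11 Mb with 13 tags and a score of 78.48, and a peak of chromosome 14 (92849105 to 92849358) by 6.62 Mb with 9 tags and a score of 50.1. Of these 5 remote peaks, only the third X peak had a false discovery rate under 5%, at 1.17%, and the others ranged from 7.01% to 11.3%.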

How the data were processed

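1 anti-HA ChIP library and 1 input library of mouse embryonic stem cells underlie 1 list of peaks. Per the submitters' processing notes, the tools were Bowtie, SAMtools and MACS 1.4 and the build was mm9. No source used here gives filters on reads, depth or options of the peak call. Per the file headers, the deposited columns are position, length, summit offset, a count of tags, a score (minus 10 times log10 of p), a fold enrichment (a ratio) and a false discovery rate in percent; all are the authors' values for each peak. Positions are mm9, counted from 1. All 2888 rows were used.

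Gaps were the next start minus the end minus 1. The fold step was found by a grid search, and expected tags were solved from the score as a Poisson probability of at least the listed tags. Heights counted as recovered where they were whole within 0.01 tags, or at the floor where the rate agreed within 0.5%. Both steps were checked on simulated peaks made with the same formulas, none of them shorter than 200 bp. That checks the calculation only, and not whether the caller's scores and folds follow these formulas. Shares have exact Clopper-Pearson intervals and medians exact binomial intervals, at 95%, covering counting error only. With no replicates and with members chosen from the same call, no test was run. The members were chosen with earlier results of these data known. Peaks named are the 10 highest scores, the 5 most remote, those at the limits and the best of each chromosome; others were chosen after their values were seen. No genome or annotation of mm9 was used here, so genes and sequence are not given. Alternatives were other length and distance limits, stricter scores or false discovery rates, autosomes only, other tolerances and an expectation from regions. Python 3.11.15 was used with scipy 1.17.1, pandas 2.3.3, matplotlib 3.10.9 and numpy 2.4.6.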

Additional observations from a re-analysis of the deposited data

How the results depend on the processing

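The number of short isolated peaks was 898, and between 684 and 1069 with a length limit of 400 bp, distance limits of 5 or 50 kb, autosomes only, or isolation judged only from peaks with a false discovery rate of at most 5%. It moved to 57 where the score had to reach 100, and to 468 with 1 tag fewer in each of the 876 recovered peaks, an alternative chosen after seeing the data. With a false discovery rate of at most 5% (373 peaks), median tags moved from 11 to 14, the median score from 59.2 to 75.2 and the median fold from 13.7 to 14.4, as fewer and higher peaks are kept by construction. With a length limit of 400 bp the median score was 57.5 and the share above 5% moved from 58.5% to 68.8%. The share with background above the floor stayed between 21.2% and 22.8% under every alternative tried. Chromosome 19 held 1.84 times the number expected from its span and 1.22 times that expected from its regions. The interval of its share of regions (46.4% to 71.5%) included the genome-wide 48.8%. The X held 0.275 times the number expected from its span and 1.097 times that expected from regions. Its share of regions, 53.6% (33.9% to 72.5%), also included 48.8%, so the low number was not seen by regions and no excess was shown. Gene starts and base composition were not run, since no mm9 genome was used here. No paired analysis was possible because neither group had a replicate. Depth is unknown, so an absent peak cannot be read as absent binding.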
